A study of Homo sapiens with 12 samples.

Results

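The genes C3, CFB, C1R, C1S, SERPING1, CD46, CD55 and CD59, components and regulators of the complement system, were followed in HLE-B3, a line derived from human lens epithelium and immortalized for culture. These 8 genes were taken by name from the 58735 genes of the deposited tables. They were put together with results of these libraries known: C3 was chosen by its difference between Atg7KO and WT cells, among the largest of all genes, and the other 7 were added for their roles. The differences between Atg7KO and WT cells are therefore given for the 8 genes as a description, without a test, and tests for them are given for the response to H2O2. Total RNA was sequenced in 4 groups of 3 libraries: WT_0h and Atg7KO_0h, untreated wild type and ATG7 knockout cells, and WT_12h and Atg7KO_12h, the same cells treated with 200 μM H2O2 for 12 h. All 4 groups shared the line and its culture in DMEM/F12 with serum. The knockout was made with CRISPR/Cas9 and a guide against ATG7, a gene needed to form autophagosomes, followed by puromycin selection and picking of individual clones. The labels do not say whether the Atg7KO libraries came from 1 clone or several, so that a difference between clones and the loss of ATG7 cannot be told apart. The untreated cells were collected at 0 h, and an effect of H2O2 cannot be told apart from 12 h in culture. The study's methods call the 3 libraries of a group biological replicates. The labels do not name separate cultures, and p values measure the spread between these libraries.

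Complement is a cascade of proteases that marks cells and debris for removal and can end in a pore in the target membrane. In the classical pathway C1R and C1S, the proteases of the C1 complex, cleave C4 and C2. In the alternative pathway CFB binds to cleaved C3 and becomes the protease that cleaves further C3. All pathways meet at C3, which attaches to surfaces through an internal thioester. Host cells hold the cascade in check: SERPING1 (C1 inhibitor) inactivates C1R and C1S, CD46 is a cofactor for the cleavage of deposited C3 and C4 fragments, CD55 speeds the decay of the convertases, and CD59 blocks assembly of the pore. Most circulating complement comes from the liver, while epithelial cells also make components locally and carry the membrane regulators.

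The coding stretches at which these proteins act are shown because the results below turn on C3 and on the proteases that open the cascade. Each is 45 bases of the coding strand on GRCh38 from the GENCODE release 29 transcripts, and the capitals mark the codons of the thioester in C3 and the codon of the active-site serine in the proteases.
C3: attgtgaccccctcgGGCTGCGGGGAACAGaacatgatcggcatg
C1R: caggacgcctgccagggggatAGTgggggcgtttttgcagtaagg
C1S: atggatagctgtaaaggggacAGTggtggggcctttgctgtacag
CFB: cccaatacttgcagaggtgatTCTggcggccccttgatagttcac
The C3 stretch lay at chr19:6694531-6694575 on the minus strand, in exon 24 of 41, with the thioester starting at codon 1009 of 1663. The C1R stretch lay at chr12:7080667-7080711 on the minus strand, in exon 11 of 11, with the serine at codon 668 of 719. The C1S stretch lay at chr12:7070457-7070501 on the plus strand, in exon 12 of 12, with the serine at codon 632 of 688. The CFB stretch spanned exons 16 and 17 of 18 between 31951458 and 31951583 of chromosome 6, plus strand, with the serine at codon 699 of 764.

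RefSeq promoter windows on GRCh38.p14, 250 bases before to 50 after the start of transcription, were matched for 5 of the 8 genes (CFB, C1R, CD46, CD55 and CD59). The windows of CFB and CD55 are printed, since these are the genes with the largest responses to H2O2 among the 8, and the capitals mark matches to the motifs searched.
CFB: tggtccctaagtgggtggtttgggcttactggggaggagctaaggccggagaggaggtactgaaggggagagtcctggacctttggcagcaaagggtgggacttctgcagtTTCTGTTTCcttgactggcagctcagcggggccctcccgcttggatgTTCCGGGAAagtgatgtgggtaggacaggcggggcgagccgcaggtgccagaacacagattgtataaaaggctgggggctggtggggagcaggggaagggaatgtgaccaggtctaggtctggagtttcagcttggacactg
CD55: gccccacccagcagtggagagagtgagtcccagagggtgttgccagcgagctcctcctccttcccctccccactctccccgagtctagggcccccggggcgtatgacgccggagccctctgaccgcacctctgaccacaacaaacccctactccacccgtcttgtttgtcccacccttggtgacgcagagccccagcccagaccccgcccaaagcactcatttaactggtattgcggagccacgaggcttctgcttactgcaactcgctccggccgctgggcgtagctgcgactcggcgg
The CFB window lay at chr6:31945845-31946144 and the CD55 window at chr1:207321428-207321727, both on the plus strand. Both strands were searched for 5 motifs: a kappaB-like GGGANNTTC, a C/EBP-like TTNNGNAA, a GAS-like TTCNNNGAA, an ISRE-like GAAANNGAA and an ARE-like TGANNNNGC. The CFB window held the GAS-like match TTCCGGGAA at position -92 from the start and, on the minus strand, the ISRE-like match printed as TTCTGTTTC at position -139. These motifs occurred in 7.7% and 8.1% of all 35116 windows. A GAS-like match lay also in a window of C1R (TTCCTGGAA at -86) and of CD59 (TTCTCAGAA at -128). Windows of C1R and CD59 also held C/EBP-like and ARE-like matches. The windows of CD55 and CD46 held none of the 5 motifs. Over all windows the kappaB-like motif occurred in 4.2%, the C/EBP-like in 36.8% and the ARE-like in 41.8%. A match is a run of letters and was not tested as a binding site.

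The libraries held 15602183 to 17659496 reads assigned to genes. Reads on ATG7 were not fewer in the knockout: its mean was 2.55 FPKM in WT_0h, 3.55 in Atg7KO_0h, 1.96 in WT_12h and 2.19 in Atg7KO_12h, so the counts give no check of the label (FPKM scales reads by gene length and by library size). Of 14 lens epithelial markers VIM, CDH2, GJA1, PAX6 and SIX3 were expressed, while CRYAA, FOXE3, PROX1, MAF, PITX3, CDH1 and BFSP2 were at or near 0. CRYAB, a small heat shock protein of the lens, was at 0.172 and 0.0119 FPKM in WT_0h and Atg7KO_0h and at 1.65 and 0.94 with H2O2, and the group means of BFSP1 were 0.298 to 0.715 FPKM. Over 8 monocyte and macrophage markers the summed level was at most 2.96 FPKM and over 8 hepatocyte markers at most 0.826 FPKM. Atg7KO_0h replicate 1 stood apart, with a mean correlation of 0.966 to its replicates against 0.981 for the other 2 libraries of that group and 0.995 to 0.996 in the other groups. Results that rest on Atg7KO_0h are therefore also given without it.

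The 8 genes differed widely in level. In WT_0h the order by mean FPKM was CD59 (27.5 ± 0.687, SD, n = 3), CD46 (16.1 ± 0.593), CD55 (8.55 ± 0.647), C1S (5.87 ± 0.308), C1R (5.27 ± 0.395), C3 (2.04 ± 0.322), SERPING1 (0.839 ± 0.104) and CFB (0.317 ± 0.00853). The membrane regulators thus stood above all secreted components, and C1S and C1R were the only neighbours in this order whose libraries overlapped. In Atg7KO_0h C3 took the first place and overlapped with CD59, and C1R, C1S and CD55 overlapped with their neighbours. In Atg7KO_12h the order was CD59, CD46, C3, CD55, C1R, C1S, CFB and SERPING1, with no overlap between neighbours. C3 held 2.38% to 3.36% of the reads on the 8 genes in the WT libraries, 26.43% to 43.11% in Atg7KO_0h and 20.99% to 22.34% in Atg7KO_12h.

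**Figure D1:**
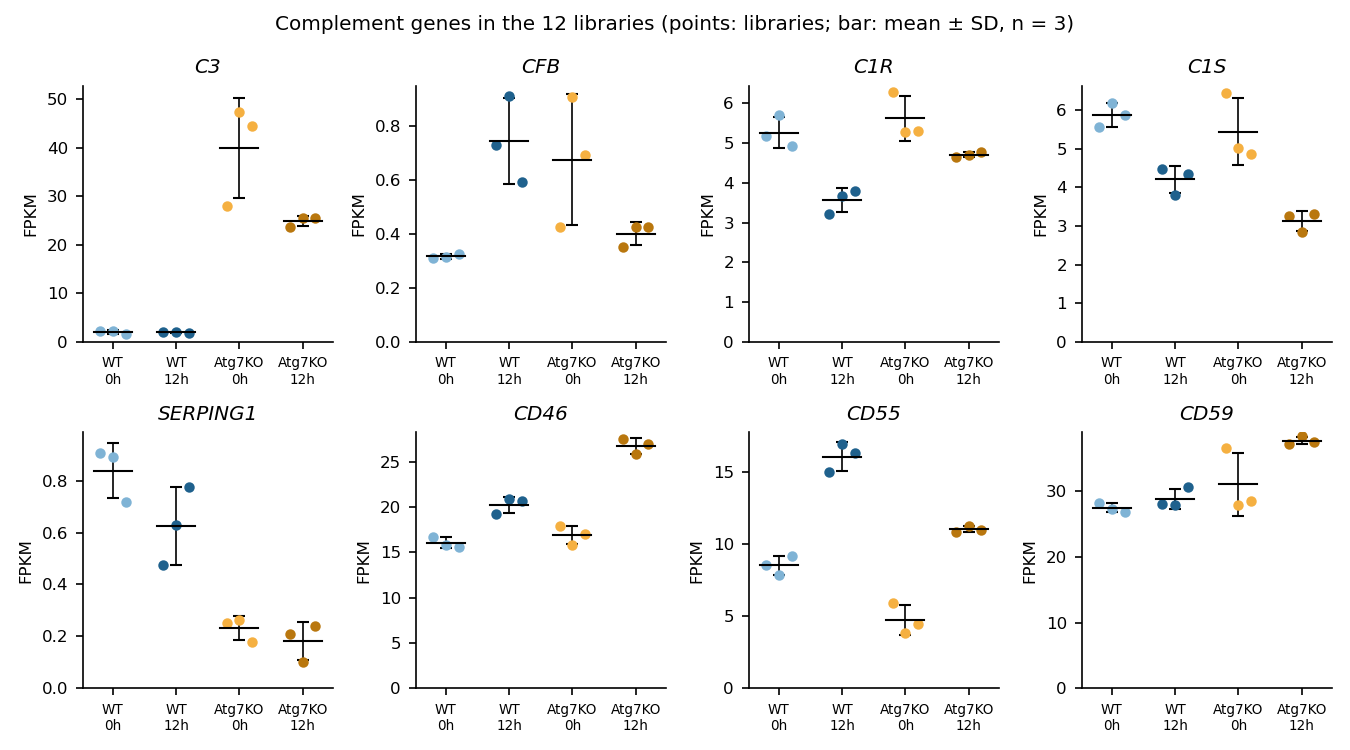
FPKM of the 8 genes (y axis, from 0) in the 4 groups (x axis), with 1 point per library and the mean ± SD of 3 libraries. C3 lies between 1.67 and 2.28 in the 6 WT libraries and between 23.6 and 47.3 in the 6 Atg7KO libraries, and CFB rises with H2O2 in WT.

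C3 (ENSG00000125730, chr19:6677704-6730562, minus strand) was at 2.16, 2.28 and 1.67 FPKM in WT_0h and at 1.97, 2.11 and 1.90 in WT_12h. It was at 28.1, 47.3 and 44.4 FPKM in Atg7KO_0h and at 23.6, 25.5 and 25.5 in Atg7KO_12h. Every Atg7KO library was above every WT library, and the Atg7KO_12h libraries all lay below those of Atg7KO_0h. The difference of Atg7KO from WT was 4.29 on the log2 scale (SE 0.25) without H2O2 and 3.64 (SE 0.06) with it, as a description. In WT cells C3 did not change detectably with H2O2, with a log2 fold change of -0.04 (SE 0.10) and an adjusted p of 0.752 (edgeR's quasi-likelihood test, Benjamini-Hochberg over all genes, as for every adjusted p below). In Atg7KO cells its log2 fold change with H2O2 was -0.69 (SE 0.20, adjusted p = 0.0278), short of the threshold of 0.01 that the study used. Without Atg7KO_0h replicate 1 this became -0.90 (SE 0.04, adjusted p = 6.36e-79). The Atg7KO_0h libraries also entered the contrast that chose C3. The difference of its H2O2 responses, Atg7KO minus WT, which is made of the contrasts C3 was chosen by, was -0.65 with all libraries and -0.84 (SE 0.10) without that library, as a description.

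CFB (ENSG00000243649, chr6:31945650-31952084, plus strand), the protease of the alternative pathway, differed between the 2 genotypes in its response to H2O2. It was at 0.310, 0.315 and 0.327 FPKM in WT_0h and at 0.732, 0.910 and 0.593 in WT_12h, which do not overlap. It was at 0.425, 0.910 and 0.692 FPKM in Atg7KO_0h and at 0.351, 0.426 and 0.427 in Atg7KO_12h, where the ranges overlap at the level of Atg7KO_0h replicate 1. In WT cells CFB rose with H2O2 by 1.22 on the log2 scale (SE 0.24, adjusted p = 2.04e-05). In Atg7KO cells its log2 fold change was -0.76 (SE 0.30, adjusted p = 0.0826), and -1.01 (SE 0.25, adjusted p = 0.000139) without Atg7KO_0h replicate 1. The difference of the responses was -1.98 (SE 0.38, adjusted p = 0.00246) and stayed past the threshold in all 20 alternatives, between -2.21 and -0.65 on the log2 scale. As a description, CFB was higher in Atg7KO than in WT cells by 1.09 (SE 0.31) without H2O2 and differed by -0.89 (SE 0.23) with it. This difference of responses is made of the same 4 groups as the contrasts known when the genes were chosen. The level of CFB was low, with 27 to 81 reads per library. Of its exon bases 45.01% are shared with AL645922.1, an annotated gene that runs from C2 into CFB and was listed with 0 reads in every library, and how the counter treated shared bases is not given in the sources used here.

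The proteases of the classical pathway fell with H2O2 in WT cells. C1R (ENSG00000159403, chr12:7080199-7092607, minus strand) was at 5.17, 5.70 and 4.93 FPKM in WT_0h and at 3.22, 3.68 and 3.79 in WT_12h, without overlap. It fell by 0.57 on the log2 scale (SE 0.08, adjusted p = 5.72e-08). In Atg7KO_0h it was at 6.29, 5.28 and 5.31 FPKM and in Atg7KO_12h at 4.65, 4.71 and 4.77, again without overlap, with a log2 fold change of -0.26 (SE 0.10, adjusted p = 0.0745). C1S (ENSG00000182326, chr12:6988259-7071032, plus strand) was at 5.56, 6.18 and 5.87 FPKM in WT_0h and at 4.48, 3.80 and 4.34 in WT_12h, and fell by 0.48 (SE 0.07, adjusted p = 1.91e-07). In Atg7KO cells it went from 6.45, 5.03 and 4.87 FPKM to 3.26, 2.84 and 3.30, a fall of 0.80 (SE 0.14, adjusted p = 0.00352). All 6 libraries of each genotype were separated by treatment for C1S. The call for C1S in Atg7KO cells was lost when any of the 3 Atg7KO_12h libraries was left out (adjusted p = 0.0185 to 0.023), with log2 fold changes of -0.83 to -0.73. The differences of the responses did not pass the threshold (0.31, adjusted p = 0.103 for C1R and -0.31, adjusted p = 0.162 for C1S). Without Atg7KO_0h replicate 1 that of C1R was 0.40 (adjusted p = 0.00272). As a description, C1R was 0.09 (SE 0.11) above WT in untreated Atg7KO cells and 0.40 (SE 0.08) above it with H2O2, while C1S differed by -0.11 (SE 0.13) and -0.43 (SE 0.09). Of the exon bases of C1R 11.42% are shared with C1RL and of those of C1S 3.54% with EMG1.

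SERPING1 (ENSG00000149131, chr11:57597387-57614853, plus strand), the serpin that inactivates both proteases, had the lowest level of the 8 in Atg7KO cells. It was at 0.908, 0.890 and 0.719 FPKM in WT_0h and at 0.475, 0.631 and 0.775 in WT_12h. It was at 0.252, 0.265 and 0.180 FPKM in Atg7KO_0h and at 0.211, 0.101 and 0.240 in Atg7KO_12h. Every WT library was above every Atg7KO library, while the treated and untreated libraries of each genotype overlapped. Counts were 29 to 59 reads in WT and 6 to 17 in Atg7KO libraries. The difference of Atg7KO from WT was -1.85 (SE 0.25) without H2O2 and -1.76 (SE 0.34) with it, as a description. No response to H2O2 was detectable at this depth, with -0.42 (SE 0.24, adjusted p = 0.11) in WT and -0.33 (SE 0.39, adjusted p = 0.521) in Atg7KO cells.

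Of the membrane regulators CD55 and CD46 rose with H2O2 in both genotypes. CD55 (ENSG00000196352, chr1:207321376-207386804, plus strand) was at 8.59, 7.89 and 9.18 FPKM in WT_0h and at 15.0, 16.9 and 16.4 in WT_12h. It was at 5.90, 3.86 and 4.48 FPKM in Atg7KO_0h and at 10.9, 11.3 and 11.0 in Atg7KO_12h. The treated libraries lay above the untreated ones in each genotype, and Atg7KO libraries lay below WT libraries at each time. CD55 rose by 0.91 on the log2 scale in WT cells (SE 0.06, adjusted p = 1.42e-18) and by 1.22 in Atg7KO cells (SE 0.15, adjusted p = 0.00101). The difference of these responses was 0.31 (adjusted p = 0.195), and 0.50 (adjusted p = 4.08e-06) without Atg7KO_0h replicate 1. The Atg7KO cells were lower by a log2 difference of -0.85 (SE 0.16) without H2O2 and -0.55 (SE 0.05) with it, as a description.

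CD46 (ENSG00000117335, chr1:207752057-207795513, plus strand) was at 16.8, 15.9 and 15.7 FPKM in WT_0h, at 19.3, 20.9 and 20.6 in WT_12h, at 17.9, 15.9 and 17.0 in Atg7KO_0h and at 27.5, 25.8 and 27.0 in Atg7KO_12h. The untreated groups overlapped, and the treated Atg7KO libraries were the highest of all. CD46 rose with H2O2 by 0.33 in WT cells (SE 0.05, adjusted p = 3.59e-08) and by 0.66 in Atg7KO cells (SE 0.09, adjusted p = 0.00126). The second call was lost without Atg7KO_12h replicate 1 (adjusted p = 0.0119) or replicate 3 (adjusted p = 0.0114), with log2 fold changes of 0.64 and 0.66. The difference of the responses was 0.33 (adjusted p = 0.0252), 0.38 (adjusted p = 5.71e-07) without Atg7KO_0h replicate 1, and past the threshold by DESeq2 (adjusted p = 0.00418). As a description, Atg7KO cells differed from WT cells by 0.07 (SE 0.09) without H2O2 and 0.39 (SE 0.04) with it.

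CD59 (ENSG00000085063, chr11:33703010-33736491, minus strand), the inhibitor of the pore, moved least among the membrane regulators. It was at 28.2, 27.4 and 26.9 FPKM in WT_0h, at 28.0, 27.9 and 30.6 in WT_12h, at 36.6, 28.0 and 28.6 in Atg7KO_0h and at 37.3, 38.4 and 37.6 in Atg7KO_12h. The WT groups overlapped, and Atg7KO_0h replicate 1 lay close to the treated Atg7KO libraries. Its log2 fold change with H2O2 was 0.07 in WT cells (SE 0.04, adjusted p = 0.185) and 0.28 in Atg7KO cells (SE 0.12, adjusted p = 0.108). Without Atg7KO_0h replicate 1 the value in Atg7KO cells was 0.40 (SE 0.03, adjusted p = 2.93e-26), and the difference of the responses was 0.35 (adjusted p = 2.42e-07) in place of 0.21 (adjusted p = 0.245). A correction for gene length brought CD59 past the threshold in WT cells as well (0.31, adjusted p = 2.97e-08) and turned the difference of the responses to -0.17 (adjusted p = 0.578). Without H2O2 Atg7KO differed from WT by 0.17 (SE 0.12), and with it by 0.38 (SE 0.04), as a description.

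Counted over the 8 genes, H2O2 raised 3 and lowered 2 in WT cells, where 30.9% of all genes tested were higher and 30.1% lower. In Atg7KO cells it raised 2 and lowered 1, against 13.6% and 12.4% of all genes. Leaving C3 aside, the difference of the responses was called lower for 1 of 7 genes, CFB, and higher for 0 by edgeR, against 7.01% and 7.02% of all genes (2 higher at an unadjusted p under 0.05, and 1 by DESeq2). Without Atg7KO_0h replicate 1, H2O2 raised 3 and lowered 3 in Atg7KO cells (29.8% and 28.6% of all genes). C3 was among the 3 lowered, and the Atg7KO_0h libraries entered the contrast that chose it. The difference of the responses was higher for 4 and lower for 1 of the 7 (17.8% and 16.3%). The median log2 fold change of the 8 genes, C3 included, was 0.01 in WT and -0.29 in Atg7KO cells with H2O2, beside -0.01 and -0.03 over all genes.

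**Figure D2:**
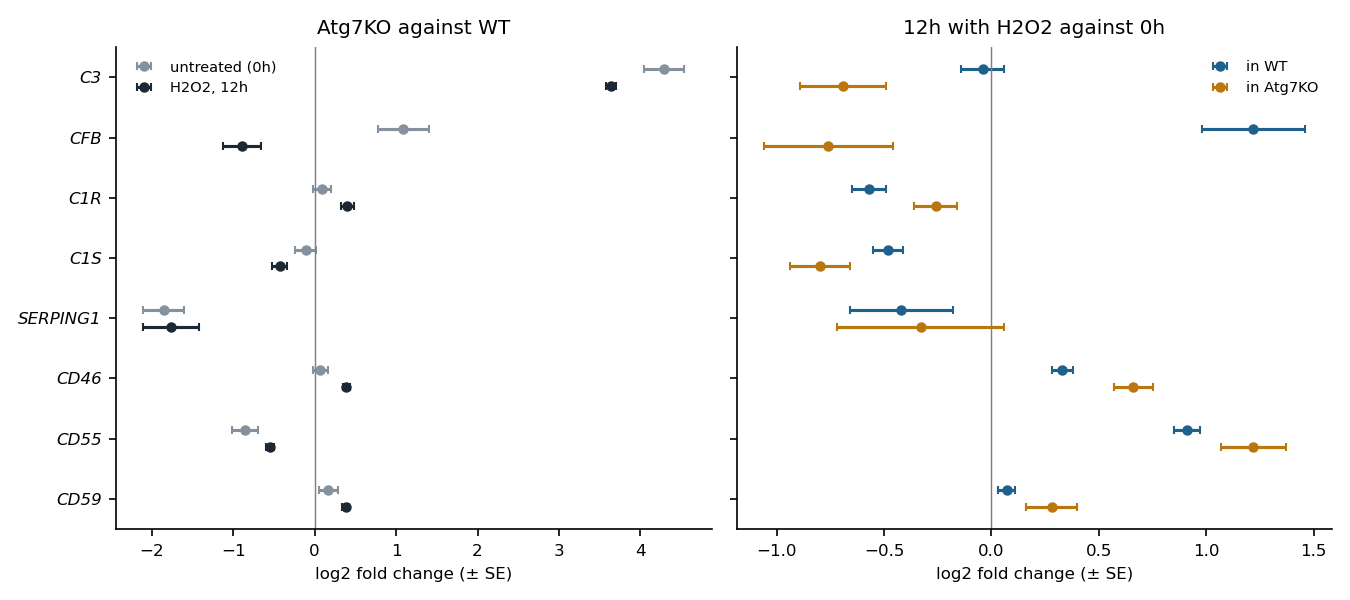
Log2 fold changes (x axis, ± SE) of the 8 genes (y axis) between Atg7KO and WT cells (left) and with H2O2 (right), each from 3 libraries against 3. C3 is at 4.29 and 3.64 between genotypes, and CFB responds by 1.22 in WT and -0.76 in Atg7KO cells.

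Ratios between genes of one library do not depend on its total, and 4 of them, chosen after the values were seen, are given as a description without a test. CD55 per CD59 was 0.311 ± 0.0275 in WT_0h, 0.559 ± 0.0421 in WT_12h, 0.152 ± 0.0125 in Atg7KO_0h and 0.293 ± 0.0013 in Atg7KO_12h (SD, n = 3). The treated libraries lay above the untreated ones within each genotype. CD46 per CD59 was 0.585 ± 0.0078 in WT_0h, 0.704 ± 0.0411 in WT_12h, 0.55 ± 0.0551 in Atg7KO_0h and 0.71 ± 0.0333 in Atg7KO_12h. C1S per C1R was 1.12 ± 0.065 in WT_0h, 1.19 ± 0.184 in WT_12h, 0.964 ± 0.0562 in Atg7KO_0h and 0.665 ± 0.0544 in Atg7KO_12h, so that C1R stood above C1S in each Atg7KO_12h library. CFB per C3 was 0.159 ± 0.0316 in WT_0h and 0.372 ± 0.0598 in WT_12h, but 0.0166 ± 0.0022 and 0.0161 ± 0.0011 in the Atg7KO groups.

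**Figure D3:**
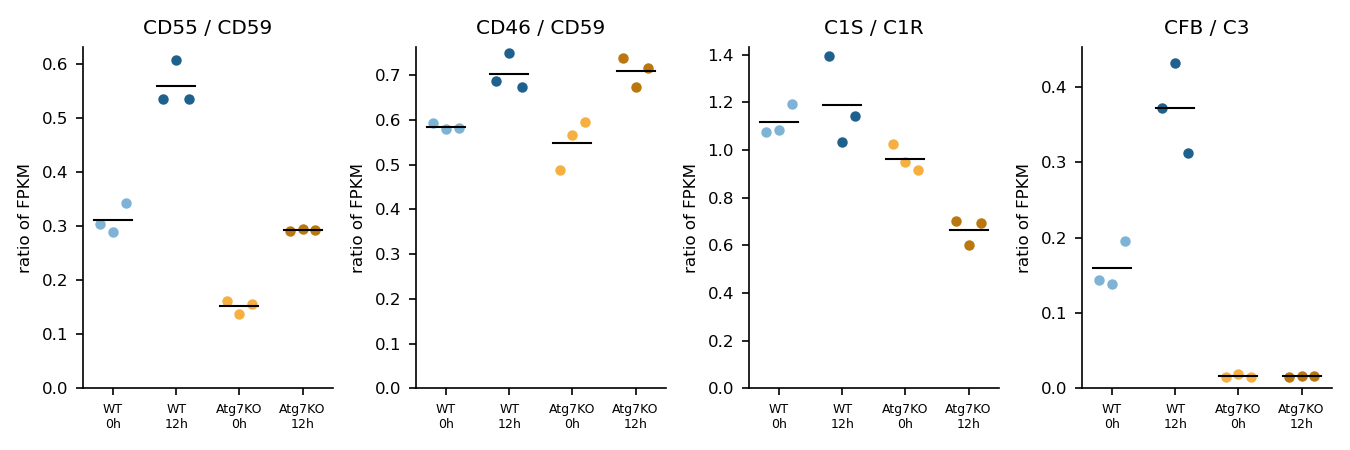
Ratios of FPKM (y axis, from 0) of 4 pairs of genes in the 4 groups (x axis), with 1 point per library and a line at the mean of 3. CD55 per CD59 is higher in the treated libraries of each genotype, and C1S per C1R is lowest in Atg7KO_12h with a mean of 0.665.

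Of 50 other complement genes, 7 were above 1 FPKM in at least 1 group and 8 had no read in any library, among them C1QA, MBL2, C8A and C8B. C1q, the partner of C1R and C1S, was thus without reads for its A chain. In WT cells H2O2 raised 6 and lowered 4 of the 20 tested, near the 30.9% and 30.1% of all genes, with a median of 0.40 beside -0.01 over all genes. In Atg7KO cells it raised 0 by edgeR (1 at an unadjusted p under 0.05, 0 by DESeq2) and lowered 5 of 17, beside 13.6% and 12.4% of all genes, with a median of -0.04 beside -0.03, and raised 2 and lowered 7 of 18 without Atg7KO_0h replicate 1, beside 29.8% and 28.6%. C2, ITGAM and CFP, raised in WT cells, passed the filter on low counts there only through WT_12h. CFI, lowered in Atg7KO cells, passed it only through Atg7KO_0h, and so did the complement regulator CSMD1 without Atg7KO_0h replicate 1. Such genes could be called in 1 direction only. C5, which starts the terminal pathway, fell in both genotypes, by 1.38 in WT (SE 0.15, adjusted p = 5.65e-11) and 1.32 in Atg7KO cells (SE 0.21, adjusted p = 0.00245). C1RL, a relative of C1R that shares exon bases with it, fell by 1.27 (SE 0.28, adjusted p = 7.34e-05) and 1.67 (SE 0.20, adjusted p = 0.000678), and the scavenger receptor COLEC12 by 1.45 (SE 0.23, adjusted p = 3.87e-07) and 1.10 (SE 0.16, adjusted p = 0.00193).

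The responses to H2O2 were called different between the genotypes for 3 of the 21 other complement genes tested. In Atg7KO cells 3 were lower and 0 higher, beside 7.01% and 7.02% of all genes. Over both directions the count was near the share of all genes. CLU, which encodes clusterin, a chaperone that also blocks the pore, was at 2.97 FPKM in WT_0h and 6.08 in WT_12h, and at 4.45 and 4.40 in the Atg7KO groups. It rose by 1.03 in WT cells (SE 0.08, adjusted p = 1.17e-16), its value in Atg7KO cells was -0.02 (SE 0.18, adjusted p = 0.938), and the difference was -1.05 (SE 0.20, adjusted p = 0.0024). C5AR1, the receptor of C5a, went from 0.321 to 1.66 FPKM in WT cells and from 0.362 to 0.36 in Atg7KO cells. The difference of its responses was -2.36 (SE 0.37, adjusted p = 0.000803). ITGAM, the alpha chain of complement receptor CR3, went from 0.0692 to 0.812 FPKM in WT and from 0.222 to 0.497 in Atg7KO cells, with a difference of -2.38 (SE 0.42, adjusted p = 0.00152). All 3 passed without Atg7KO_0h replicate 1 as well. There 3 of 21 were lower and 0 higher, beside 16.3% and 17.8% of all genes. C2, which lies beside CFB, rose by 2.66 in WT cells (SE 0.36, adjusted p = 7.98e-09), where by the filter it could be called only higher. The difference of its responses did not pass (-1.72, SE 0.61, adjusted p = 0.0504). Counts were low for several of these genes, at 5 to 84 reads per library for ITGAM and 13 to 96 for C5AR1, against 339 to 716 for CLU. Macrophages and monocytes also carry C5AR1 and ITGAM. The summed level of their 8 markers was 2.46 to 2.96 FPKM in WT_0h, 1.78 to 2.43 in WT_12h, 1.94 to 2.84 in Atg7KO_0h and 1.56 to 1.82 in Atg7KO_12h. Of 4 markers tested in WT cells, H2O2 raised 1, CSF1R (0.0798 to 0.478 FPKM, 2.56 on the log2 scale, adjusted p = 1.74e-08), and lowered 2, LYZ (-2.06, adjusted p = 1.3e-06) and PTPRC (-2.14, adjusted p = 0.00129). The difference of the responses was called for 1 of 4, CD14 (-2.38, SE 0.39, adjusted p = 0.00097), and was -1.63 for CSF1R (adjusted p = 0.0127). CD68, AIF1, TYROBP and CD163 had at most 7 reads in any library. The part of such cells in these results was not tested, and these markers were named after their values were seen.

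**Figure D4:**
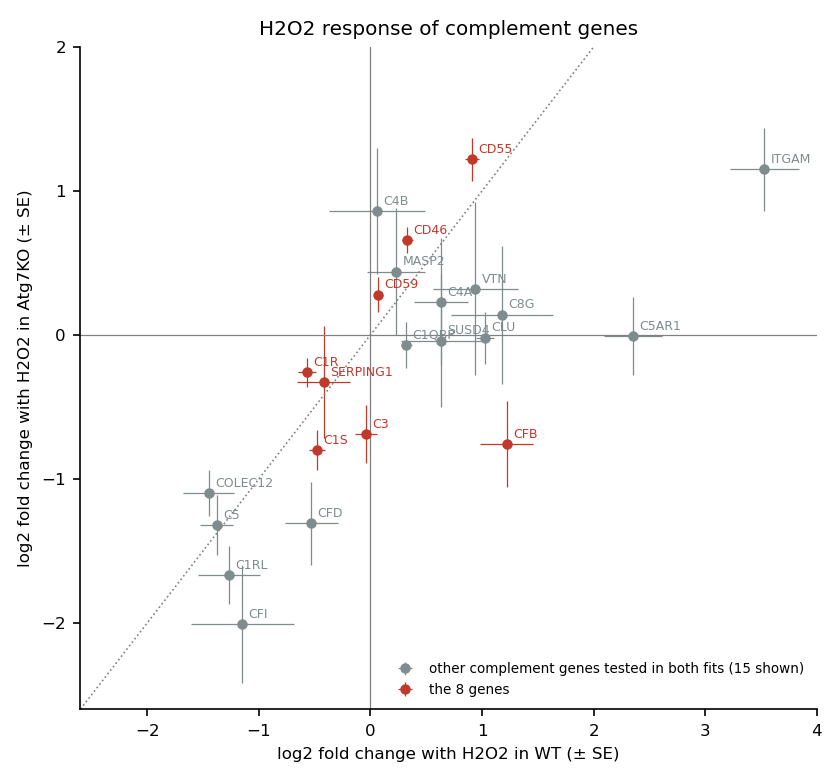
Log2 fold change with H2O2 in Atg7KO cells (y axis, ± SE) against that in WT cells (x axis, ± SE) for the 8 genes and for 15 other complement genes tested in both fits, with the dotted line at equal values. CFB lies at 1.22 and -0.76, and ITGAM, C5AR1 and CLU lie to the right of the line.

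Between the genotypes, where these other genes took no part in the choice, 2 of 18 were higher and 0 lower by edgeR in untreated Atg7KO cells (2 lower at an unadjusted p under 0.05, and 2 by DESeq2), beside 4.42% and 3.28% of all genes, with a median of 0.18 beside 0.01 over all genes. The 2 were COLEC12, higher by 1.01 (SE 0.18, adjusted p = 0.00886), and CSMD1, a regulator of complement with 0 reads in every WT_0h library and 92 in the Atg7KO_0h libraries together, at least 30.8-fold higher against a floor of 3 reads over the group. CSMD1 passed the filter on low counts only through Atg7KO_0h, so it could be called only higher. Without Atg7KO_0h replicate 1, 5 of 20 were higher and 3 lower, beside 18.2% and 17.9%. By the filter, CSMD1 and ITGAM among them could be called only higher, and C4BPB and ITGB2 only lower. With H2O2, 1 of 19 was higher and 11 were lower in Atg7KO cells, beside 27.7% and 27.9%, with a median of -0.73 beside 0 over all genes. The lower ones included C5AR1 (-2.21, adjusted p = 1.42e-09), C2 (-2.28, adjusted p = 1.87e-07), C4BPB (-3.40, adjusted p = 1.06e-06), CFP (-2.21, adjusted p = 0.000251), CFD (-1.05, adjusted p = 0.00304), C5 (-0.77, adjusted p = 0.0026) and CLU (-0.47, adjusted p = 1.22e-06). C2, C4BPB, CFP and ITGB2, all among the 11, passed the filter only through WT_12h, so they could be called only lower. C4BPB is a chain of C4b-binding protein, a soluble inhibitor, while CFD (factor D) cleaves CFB and CFP (properdin) steadies the convertase that CFB forms. C4A also was lower (-0.74, adjusted p = 0.00697), but it and C4B are near-identical copies whose reads may be split between them. The gene that was higher was COLEC12 (1.36, adjusted p = 3.96e-06).

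Genes that are known to induce C3 or CFB were listed beside them. Of the 19 tested in untreated cells, 7 were higher in Atg7KO cells and 0 lower by edgeR (2 at an unadjusted p under 0.05, and 1 by DESeq2), beside 4.42% and 3.28% of all genes. IL1B was at 6.04 FPKM in WT_0h and 51.1 in Atg7KO_0h (3.08 on the log2 scale, SE 0.18, adjusted p = 0.000161). IL6 was at 2.33 and 18.3 FPKM (2.97, SE 0.27, adjusted p = 0.000678), IL1A at 6.46 and 25.6 (1.98, SE 0.16, adjusted p = 0.0004), and the transcription factor CEBPD at 12.0 and 32.5 (1.43, SE 0.17, adjusted p = 0.00206). With H2O2, 7 of 20 were higher and 9 lower, beside 27.7% and 27.9% of all genes. IL1B was again higher, at 472 against 111 FPKM (2.08, SE 0.04, adjusted p = 2.25e-29), and its receptor IL1R1 was at 4.09 against 1.73 (1.24, SE 0.09, adjusted p = 1.5e-13). LIF was lower, at 46.7 against 158 (-1.77, SE 0.11, adjusted p = 0.000123). TNF had 62 reads over the 3 WT_12h libraries and 0 in Atg7KO_12h, at least 21.4-fold lower. It passed the filter only through WT_12h, also for the response in WT cells. H2O2 raised 15 and lowered 4 of 20 in WT cells, beside 30.9% and 30.1% of all genes, and raised 8 and lowered 2 of 19 in Atg7KO cells, beside 13.6% and 12.4%. The receptor IL6R, among those raised in each genotype, passed the filter only through the treated libraries and could be called only higher. The responses differed for 12 of 20, all lower in Atg7KO cells, beside 7.01% of all genes, and without Atg7KO_0h replicate 1 the counts were 15 higher and 2 lower of 19 between the untreated genotypes, 12 raised and 5 lowered of 19 with H2O2 in Atg7KO cells, and 3 higher and 13 lower of 21 for the difference. Of all genes, 18.2% and 17.9%, 29.8% and 28.6%, and 17.8% and 16.3% were called there. The largest with all libraries, beside TNF, were LIF (-2.57, adjusted p = 2.05e-06), IL1A (-2.16, adjusted p = 1.04e-05) and IL6 (-2.13, adjusted p = 0.000217). IL1B itself rose with H2O2 by 4.19 in WT cells (SE 0.06, adjusted p = 8.9e-45) and by 3.21 in Atg7KO cells (SE 0.18, adjusted p = 3.69e-05), and the responses differed by -0.98 (adjusted p = 0.00224).

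Of 20 acute phase genes, whose products rise in inflammation as C3 does, 3 were tested in untreated cells and 17 were not. All 3 were higher in Atg7KO cells, beside 4.42% of all genes. SAA1 and SAA2 passed the filter on low counts only through Atg7KO_0h. These could be called only higher, so the count is a description. SAA1 was at 0.0683 FPKM in WT_0h and 5.15 in Atg7KO_0h (6.02, SE 0.69, adjusted p = 0.00164), with 0 to 3 reads in the WT_0h libraries, SAA2 at 0.0256 and 0.421 (3.89, SE 0.65, adjusted p = 0.00721) and PTX3, a pattern-recognition protein that can bind C1q, at 3.6 and 13.5 (1.90, SE 0.19, adjusted p = 0.00101). SAA1 and SAA2 are near-identical copies and their reads may be split. PTX3 rose by 2.13 with H2O2 in WT cells (SE 0.10, adjusted p = 3.35e-23), was at -0.31 in Atg7KO cells (SE 0.18, adjusted p = 0.197), and the responses differed by -2.44 (SE 0.22, adjusted p = 2.54e-05). In WT cells 4 of 4 acute phase genes tested rose with H2O2, beside 30.9% of all genes. SAA1, HPX and SERPINA1 passed the filter there only through WT_12h and could be called only higher, so this count is a description. In Atg7KO cells 0 of 3 passed the test by edgeR (2 at an unadjusted p under 0.05, 0 by DESeq2), beside 13.6% higher and 12.4% lower of all genes. Without Atg7KO_0h replicate 1, 2 of 3 rose, beside 29.8%. Between the treated genotypes 2 of 5 were higher and 3 lower in Atg7KO cells, beside 27.7% and 27.9%, with SAA1 at 2.70 (SE 0.22, adjusted p = 4.19e-12). SAA2, also among the higher ones, passed the filter only through Atg7KO_12h and could be called only higher. Among the lower ones, HPX and SERPINA1 passed it only through WT_12h and could be called only lower.

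Genes with the pattern nearest to each of the 8 were sought among 13306 genes, by the root mean square difference of log2 values over the 12 libraries after centring each gene. Nearest to C3 were SPANXA2 (0.357), TRIB2 (0.503), FAM133A (0.51), INAVA (0.514) and FDCSP (0.544). SPANXA2 belongs to a family of near-identical copies, and its reads may be split. FAM133A went from 0.832 FPKM in WT_0h to 11.8 in Atg7KO_0h, and FDCSP from 0.132 to 5.90. Nearest to CFB were MAFK (0.218) and LTBP2 (0.243), to SERPING1 NFASC (0.284) and C2orf15 (0.307), and to CD55 IRF5 (0.135) and DEPDC7 (0.141). C1R lay nearest to MFSD8 (0.0815) and GINS1 (0.0831), C1S to CTSF (0.0852) and ETFDH (0.0887), CD46 to FAM210B (0.0594) and STX12 (0.0681), and CD59 to CMPK1 (0.0495) and MTAP (0.0507). The differences were smaller for genes that varied less over the libraries, so that their sizes rank neighbours of 1 gene and not one gene against another.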

How the data were processed

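The authors deposited raw read counts, whole numbers of reads per gene, and FPKM values made from them by gene length and library size, for 58735 genes on GRCh38. The submitters' processing notes name HISAT2 2.0.5 and featureCounts 1.5.0-p3, while strand setting and treatment of shared bases are not given in the sources used here. Groups came from the sample titles, and 0 sample columns were unused. Library totals were 15602183 to 17659496. Precision is limited by the spread between 3 replicates and, for SERPING1 and CFB, by few reads.

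The counts were fitted in edgeR 4.0.16 (R 4.3.3, with limma 3.58.1 for the FPKM values): filterByExpr with a minimum count of 10, TMM scaling, and a robust quasi-likelihood fit of the 6 libraries of each comparison, or of all 12 for the difference of the responses. Calls were made at a Benjamini-Hochberg adjusted p under 0.01 over all genes tested. Scripts were tested on simulated data. The 8 genes, the lists, the motifs and the tests were chosen with earlier results of these data known. Named genes were the 8, any tested gene of the other complement list, up to 4 of each context list by mean FPKM and by size among those called, the nearest 5 genes to C3 and 2 to each other gene (prior count 2), ATG7, and genes overlapping the 8. The values of 1 gene of the other complement list are not reported here. Alternatives were DESeq2 1.42.0, RLE scaling, 2 other filters, a fit of all 12 libraries, a block for the replicate number, leaving out single libraries, limma on log2(FPKM + 1) or log2(FPKM + 0.1), and, added after the data were seen, a gene length correction.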

Additional observations from a re-analysis of the deposited data

Results flagged for a closer look

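A total of 4 of the complement genes responded to H2O2 differently in Atg7KO and WT cells by the test of the interaction. They were 1 of the 7 genes that remain with C3 aside, and 3 of the 21 other complement genes tested. Over all genes 7.01% were called lower and 7.02% higher. The difference, Atg7KO minus WT on the log2 scale, was -1.98 for CFB, -1.05 for CLU, -2.36 for C5AR1 and -2.38 for ITGAM. Groups of 3 libraries were not tested for outlying values.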

How the results depend on the processing

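Of 637 member values under the alternatives, 597 kept their direction and their side of the threshold (for the untested contrasts, stayed within 1 SD of the replicates). The 6 that changed sign were small and without a call: C3 in WT cells (0.04 without WT_0h replicate 2, in a range of -0.18 to 0.04 with 1 library left out, and 0.16 with the gene length correction), the difference of the responses for SERPING1 (-0.07 without WT_12h replicate 1, -0.05 without Atg7KO_0h replicate 3 and -0.13 without Atg7KO_12h replicate 3, in a range of -0.13 to 0.39) and for CD59 (-0.17 with the gene length correction). Calls between the genotypes are not counted for the 8 genes, since these contrasts took part in their choice. With H2O2 in Atg7KO cells 3 of the 8 were called and 1 to 6 with 1 library left out, C3 included. Over all genes 4025 of 15475 were called in this comparison, and 1767 to 9341 genes with 1 library left out. For the difference of the responses 1 was called, 2 by DESeq2, without a filter or with the gene length correction, and 1 to 6 with 1 library left out, C3 included. Over all genes the difference was called for 2366 of 16856, for 3538 of 17383 by DESeq2 and for 4054 of 36648 without a filter. With the gene length correction it was called for 2470 of 16856, and with 1 library left out for 1332 to 5974 genes. Of the other complement genes, 2 were called between the untreated genotypes, 4 by DESeq2 or without a filter, 0 with at least 10 counts in every library or with the replicate block, 6 with all 12 libraries, 1 with either limma fit, 5 with the gene length correction, and 0 to 8 with 1 library left out. Calls over all genes there were 1182 of 15357 in the main fit, 2306 of 17623 by DESeq2 and 1646 of 30616 without a filter. They were 902 of 13660 with at least 10 counts in every library and 499 of 15357 with the replicate block. The limma fits called 1033 and 1031 of 15357 and the gene length correction 1808 of 15357. With 1 library left out 287 to 5734 genes were called. Between the treated genotypes 12 were called and 7 with all 12 libraries, and with H2O2 in Atg7KO cells 5 were called and 1 to 9 with 1 library left out. Over all genes 8847 of 15909 were called between the treated genotypes and 4876 of 16856 with all 12 libraries. The highest counts came without Atg7KO_0h replicate 1. They were 8 of the other complement genes between the untreated genotypes, 6 of the 8 genes and 9 of the others with H2O2 in Atg7KO cells, and 6 of the 8 for the difference. In the untreated comparison the biological coefficient of variation fell there from 16.2% to 4.1%. Calls over all genes in that comparison were 5734 there, 1182 in the main fit and 3154 with all 12 libraries. The causes were not tested. All 12 libraries in the fit share 1 estimate of the spread. Same-numbered libraries deviated together by correlations of -0.12 to 0.13. No pairing by number was detected, though such values from groups of 3 cannot exclude it. The replicate block lowered the calls over all genes between the untreated genotypes from 1182 to 499. The counts of members called with H2O2 in WT cells were 5 or 6 in every alternative, with 6829 to 10325 genes called over all. SERPING1 (6 to 59 reads) and CFB (27 to 81 reads) are limited by depth, and on log2(FPKM + 1) their differences shrink.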
